A study of Mus musculus with 23 samples.

Results

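The 86 genes described here carry the names of cytosolic ribosomal proteins, 52 with a large-subunit name (Rpl) and 34 with a small-subunit name (Rps). They were taken by symbol from the 47729 gene entries of the count table: protein-coding symbols with Rpl or Rps followed by a digit, plus Rplp0, Rplp1, Rplp2 and Rpsa. Symbols with -ps, the mark of named processed copies, and the S6 kinases were dropped. The retrogene Rps27rt carries no such mark and stayed in the set. The rule reads names only. The count filter kept 85 of them among the 16260 genes tested, and Rpl10l fell below it. The set holds 77 common ribosomal protein genes, 8 paralogs (Rpl3l, Rpl7l1, Rpl10l, Rpl22l1, Rpl36al, Rpl39l, Rps27l and Rps27rt) and Rps19bp1, which encodes a protein that binds RPS19 and is no part of the ribosome.

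RNA came from cells of wildtype C57BL/6J mice, obtained by Liberase TM digestion of subcutaneous tissue and of poly(ethylene glycol) (PEG) hydrogels, synthetic water-swollen implants that draw a foreign body response. Macrophages, described in the series as Cx3Cr1+ and Ly6C low, and monocytes, Cx3Cr1+ and Ly6C high, were each profiled in mice with no implant (controls) and at 2, 14 and 28 days after implantation. The 8 groups hold 3 biological replicates each, except the macrophage controls with 2, so 23 libraries in all. The labels do not say whether animals were pooled, and give no age or sex.

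A ribosome is built from a small subunit, which reads the mRNA, and a large subunit, which joins amino acids. Apart from the stalk proteins Rplp1 and Rplp2, each protein sits in a ribosome in a single copy, and cells make them from many separate genes whose mRNAs are short and among the most abundant of a cell. Most of these mRNAs begin with a run of pyrimidines (the 5′ terminal oligopyrimidine, or TOP, motif) through which mTORC1 and LARP1 set their translation. Mammalian genomes also carry many processed copies of these genes, so short reads from them often match several places.

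The likeness between gene copies matters for what a read of 75 bases can tell apart, and the start of 3 families is shown for that reason. Each line gives the first 75 coding bases of the principal GENCODE M21 transcript, 5′ to 3′, and capitals mark bases that differ from the first gene of the family.
Rps27: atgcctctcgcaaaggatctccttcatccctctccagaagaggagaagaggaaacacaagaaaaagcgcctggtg
Rps27rt: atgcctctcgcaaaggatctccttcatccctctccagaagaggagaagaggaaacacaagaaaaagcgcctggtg
Rps27l: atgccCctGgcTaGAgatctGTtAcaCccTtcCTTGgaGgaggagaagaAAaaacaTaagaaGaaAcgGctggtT
Rpl36a: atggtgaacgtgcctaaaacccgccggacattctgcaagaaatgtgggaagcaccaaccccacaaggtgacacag
Rpl36al: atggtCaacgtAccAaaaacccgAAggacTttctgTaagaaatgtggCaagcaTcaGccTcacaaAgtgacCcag
Rpl39: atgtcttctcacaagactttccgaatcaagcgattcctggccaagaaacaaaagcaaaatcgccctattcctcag
Rpl39l: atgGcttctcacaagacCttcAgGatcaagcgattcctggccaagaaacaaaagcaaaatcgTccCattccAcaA
Rps27 (chr3:90212522-90213651, minus strand, GRCm38) and the retrogene Rps27rt (chr9:114982366-114982739, minus strand) have the same 252 coding bases, so a read inside that sequence cannot be given to 1 of them. Rps27l (chr9:66946086-66949516, plus strand) differs from Rps27 at 22 of these 75 bases, Rpl36al (chr12:69182731-69184083, minus strand) from Rpl36a at 13, and Rpl39l (chr16:10170226-10174911, plus strand) from Rpl39 at 8.

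A pyrimidine run near the annotated start is the second sequence feature, found in many of these genes, and it was not used to choose them. It was searched as 8 or more C and T in a row, on the sense strand, within 30 bases on either side of the start sites in the RefSeq promoter table (GRCm38.p6). The table holds 66 members, and 35 of them (53%) had such a run, against 4217 of 16522 protein-coding genes (25.5%) and 19 of 69 mitochondrial ribosomal protein genes (27.5%). A match is a description of letters and not a mapped TOP start. The windows of 6 members that have a run and whose values are given below are printed, with the run in capitals, to show its form. Counted from the listed start site (negative is upstream), the run began at -5 in Rplp2, 3 in Rps26 and -18 in Rpl4. In Rpl10a it began at 17, in Rps6 at -1 and in Rps27 at -2. The Rpl4 run thus ended before that site.
Rplp2, chr7:141447636-141447665, plus strand: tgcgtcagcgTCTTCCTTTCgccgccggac
Rps26, chr10:128626485-128626514, minus strand: aagccgccggaTCCTCTTTCgagtcttggc
Rpl4, chr9:64173361-64173390, plus strand: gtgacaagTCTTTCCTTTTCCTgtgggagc
Rpl10a, chr17:28328572-28328601, plus strand: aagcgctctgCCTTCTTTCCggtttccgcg
Rps6, chr4:86857349-86857378, minus strand: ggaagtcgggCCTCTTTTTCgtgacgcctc
Rps27, chr3:90213632-90213661, minus strand: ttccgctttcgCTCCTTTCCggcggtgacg

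All members together held 0.536% of the counts, from 0.343% to 0.923% per library. Levels are given as CPM (counts scaled to a common library total) per kilobase, averaged over the 8 groups. Per kb of summed exons, members at the high end were Rps27l at 239.8, the stalk proteins Rplp1 at 225 and Rplp0 at 203, and Rps15 at 176. At the low end were Rpl24 at 0.309, Rps12 at 0.414, Rpl23a at 0.620, Rpl39l at 0.670 and Rpl5 at 0.825. Per kb of principal mRNA the order shifted, with Rps14, of the small-subunit platform, highest at 611 and Rpl24 again lowest at 0.470. The 10 members with the most CPM took 53.8% of all member CPM, 28 of the 85 averaged under 10 CPM and 4 under 1 CPM. Proteins that a ribosome holds in single copies were thus counted at very different levels: Rps6, the substrate of the S6 kinases, averaged 1.80 CPM (2.05 per kb of mRNA) and Rps3, of the same subunit, 459 CPM (241 per kb of mRNA).

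Shared sequence went with part of that spread. A window of 75 bases, the read length, was called shared where it matched a transcript of another gene with at most 1 mismatch, and 53 of the 86 members shared over 50% of their windows while 4 shared none. The median level was 39.4 CPM per kb of mRNA in the 13 tested members with under 25% shared windows, 51.9 in the 44 with 25 to 75%, and 14.5 in the 28 with over 75%. Those 13 include the paralogs Rpl3l, Rpl7l1, Rpl39l and Rps27l, and Rps19bp1, so they are not all common ribosomal protein genes. The rank correlation of level and shared percentage across the 85 genes was -0.27, a weak relation, and neighbouring genes of a family are not independent points. Processed copies with -ps in their symbol took few counts: 274 entries held 25264 counts, against 2840735 in the members. Copies annotated without that mark were not counted here. Exons of 39 members also overlap an annotated exon of another gene, in 23 of them a gene other than a small RNA. Rpl10a and Rpl36al are among these 23. The sources used here do not state how reads with several matches or in overlapping genes were counted, so the levels of members with many shared windows or overlapping exons are uncertain.

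**Figure D1:**
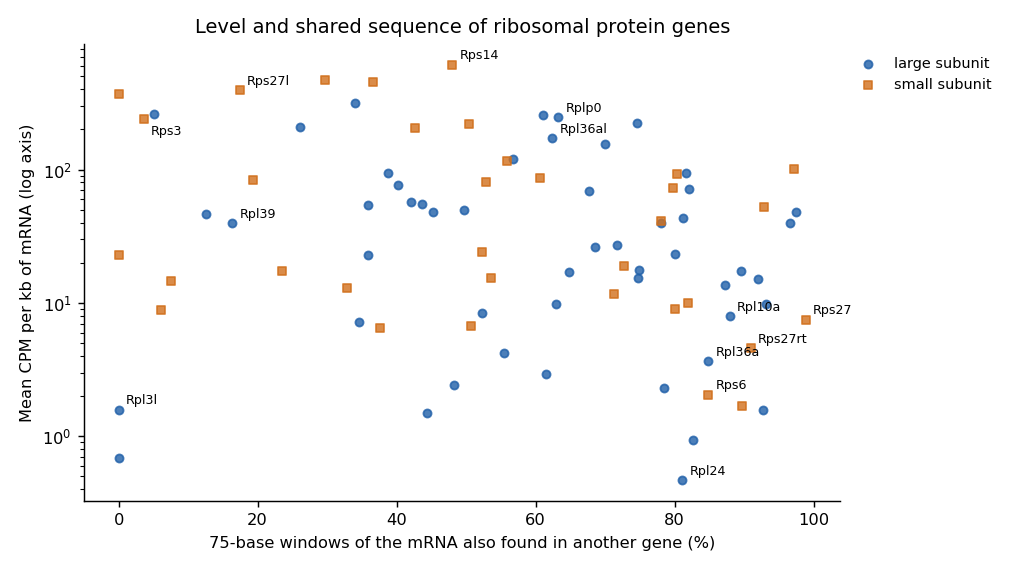
Mean CPM per kb of principal mRNA over the 8 groups (log axis) against the percentage of 75-base windows of that mRNA also found in another gene, 1 point per member (circles large subunit, squares small subunit). Rps3 and Rps27l sit high with few shared windows, Rps27, Rps27rt and Rps6 sit low with over 84% shared, and Rpl3l is low with none.

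The paralogs show how counts fell within families. Rps27l, a paralog of Rps27 known as a p53 target, had 99.7 and 121 CPM in macrophage controls and 52.4, 93.7 and 47.0 CPM in monocyte controls. Rps27 itself had 2.14, 2.65 and 0.994 CPM in those monocyte controls and its identical retrogene Rps27rt 0.567, 1.70 and 0.663 CPM. In every library Rps27l stood above both, and 98.9% of the Rps27 windows and 91.0% of the Rps27rt windows are shared. Rpl36al had a mean of 90.5 CPM over the groups and Rpl36a 1.76 CPM, with 62.4% and 84.8% of windows shared. The order was the other way round for Rpl39 (24.1 CPM) over Rpl39l (0.557 CPM) and Rpl3 (23.3 CPM) over Rpl3l (2.18 CPM), the striated-muscle form of Rpl3.

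**Figure D2:**
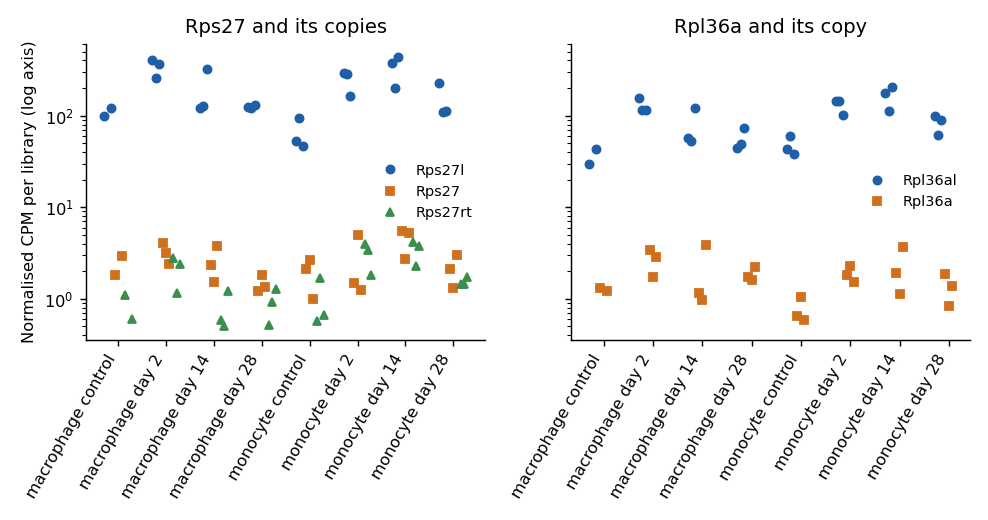
Normalised CPM (log axis) of Rps27, Rps27rt and Rps27l (left) and of Rpl36a and Rpl36al (right) in each of the 23 libraries, by group, 1 point per library. Rps27l and Rpl36al lie above their partners in every library.

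Library totals ran from 9303153 to 32994092 counts. The macrophage markers (10 of 10 detected) summed to 8583 to 27827 CPM in macrophage libraries and to 3701 to 8749 CPM in monocyte libraries. Of the 8 classical monocyte markers, 6 were called lower in macrophages than in monocytes in controls and at days 2 and 14. At day 28 it was 5, with 0 higher throughout. Among them Ly6c2 ranged from 5.03 to 332 CPM in macrophages and from 824 to 2982 CPM in monocytes. Not all of that list separated the cell types: F13a1 had 5447 and 3393 CPM in macrophage controls and 2435, 1788 and 3221 CPM in monocyte controls. Neutrophil markers (12 of 12 detected) summed to 145 and 90.1 CPM in macrophage controls and 5701, 3091 and 4183 CPM in macrophages at day 2, where 10 of the 12 were called higher, so they moved with the ribosomal protein genes there. Of the macrophage markers 5 fell and 1 rose there, and of the 8 classical monocyte markers 4 rose and 1 fell. Of the 7 fibroblast markers 6 fell and 0 rose there, with sums of 270 and 331 CPM in macrophage controls and 43.0, 5.63 and 6.66 CPM at day 2. In monocytes the neutrophil sum was 3807 to 5273 CPM in controls and 303 to 646 CPM at day 14, where 7 of the 12 fell and 1 rose. At monocyte day 2, 3 rose and 3 fell. Granulocyte-monocyte precursor markers summed to 148, 159 and 110 CPM in monocyte controls and to 28.2, 34.5 and 31.8 CPM in monocytes at day 2. Of these 7 markers, 3 were called lower at each of the 3 days, with 0 higher at day 2 and 1 higher at day 14 and at day 28. Other markers rose in monocytes beside the ribosomal protein genes: 6 of 7 fibroblast markers were called higher at each of the 3 days, with sums of 0.212, 0.164 and 1.41 CPM in controls, 127, 61.7 and 12.7 CPM at day 2, 812, 853 and 448 CPM at day 14 and 377, 655 and 285 CPM at day 28. Of the 10 macrophage markers 8 were called higher in monocytes at day 2, 7 at day 14 and 7 at day 28. In bulk samples of this kind, fewer cells of a type and less RNA per cell cannot be told apart, and the part of other cell types in the results was not tested.

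The libraries also differed in how the level of a gene depends on the length of its mRNA. For the 7174 other genes of at least 10 CPM, the slope of the log2 deviation from the gene's average on log2 mRNA length was 0.35 and 0.02 in macrophage controls and 0.44, 0.06 and 0.51 in monocyte controls, but -0.31, -0.21 and -0.32 in macrophages at day 2 and -0.29, -0.04 and -0.29 in monocytes at day 14. In monocytes at day 2 the slope was -0.07, -0.21 and -0.07. A negative slope means that short mRNAs are higher in that library. Within a group, macrophage day 14 replicate C stood apart at -0.32, against 0.06 and 0.01 in its partners. Ribosomal protein mRNAs are short: the median principal mRNA of the members is 774.5 bases and that of the other tested genes 2452, and 64 members are under 1000 bases against 15.1% of the others. Counts of members called at day 14 are given with and without that library below.

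Both subunits followed the same course over the 8 groups. The median deviation of the 46 common large-subunit genes from their average over groups, in log2 units, was -0.57 ± 0.34 (SD, n = 2) in macrophage controls, 0.41 ± 0.24 (n = 3) at day 2, -0.03 ± 0.59 at day 14 and -0.22 ± 0.26 at day 28. For the 31 common small-subunit genes the values in the same order were -0.69 ± 0.27, 0.47 ± 0.33, -0.09 ± 0.66 and -0.30 ± 0.25. Both subunits were thus lowest in controls and highest at day 2 in macrophages. In monocytes the large-subunit genes stood at -0.43 ± 0.34 in controls, 0.50 ± 0.36 at day 2, 0.58 ± 0.41 at day 14 and -0.18 ± 0.32 at day 28. The small-subunit genes stood at -0.47 ± 0.39, 0.66 ± 0.41, 0.71 ± 0.48 and -0.16 ± 0.25. Days 2 and 14 were both high in monocytes and differed by less than the spread of their libraries.

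Single libraries overlapped between some groups. The 77 common genes together deviated by -0.45, -0.39 and 0.67 in macrophages at day 14, so replicate C lay at the level of day 2 and the other 2 near the controls. In monocyte controls the values were -0.57, -0.03 and -0.72, with replicate B higher than 2 of the 3 day 28 libraries (0.13, -0.43 and -0.25). The other short genes of at least 10 CPM (569 with an mRNA under 1000 bases) deviated by -0.34, -0.26 and 0.71 in macrophages at day 14 and by -0.97, -0.27 and -1.06 in monocyte controls, and the same libraries stood apart.

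**Figure D3:**
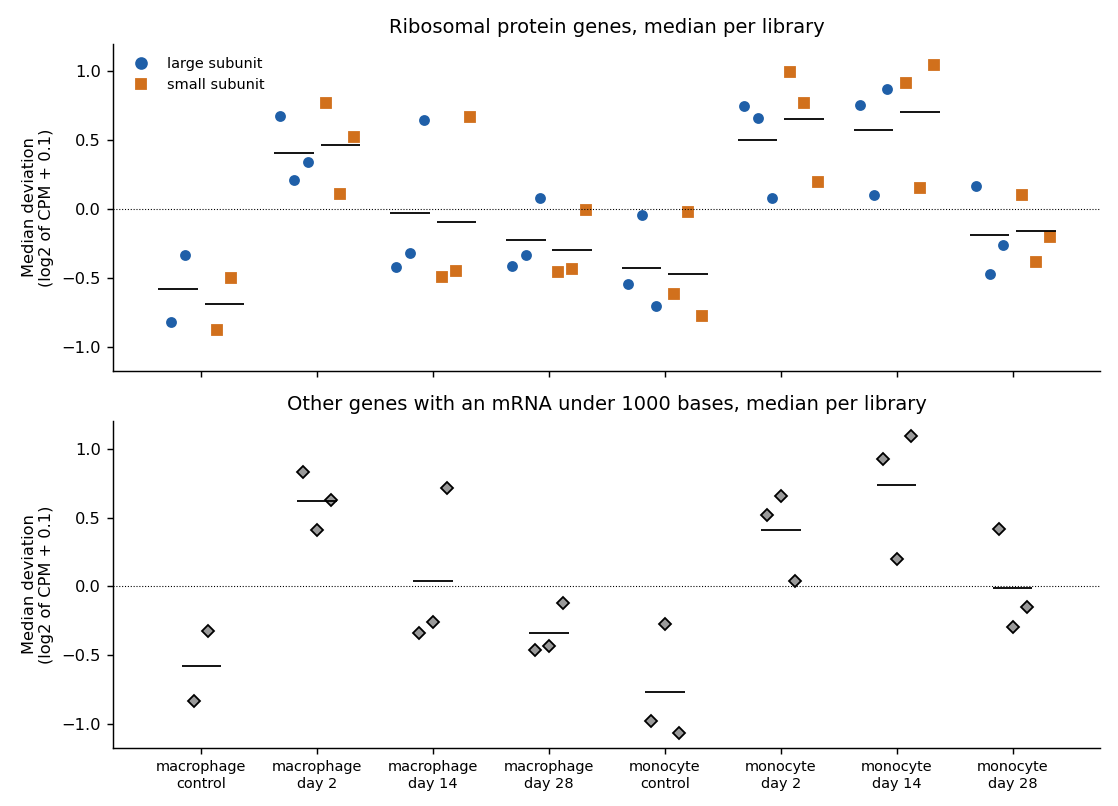
Median deviation from the average over the 8 groups (log2 of CPM + 0.1) per library, for common large-subunit genes (circles) and small-subunit genes (squares) in the upper panel and for 569 other genes with an mRNA under 1000 bases in the lower panel, with bars at group means. Large and small subunit follow the same course, and the other short genes follow it too, with macrophage day 14 replicate C high in both panels.

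The difference between the subunits had 1 sign throughout. On the scale of log2 CPM per kb of summed exons, the median large-subunit gene lay below the median small-subunit gene in all 23 libraries, with a difference (large minus small) of -0.48 ± 0.16 (mean ± SD, n = 2) in macrophage controls and -0.63 ± 0.12, -0.43 ± 0.35 and -0.46 ± 0.02 (n = 3 each) at days 2, 14 and 28. In monocytes the differences were -0.54 ± 0.22 in controls and -0.43 ± 0.08, -0.36 ± 0.27 and -0.51 ± 0.12 at days 2, 14 and 28. The group means thus ranged from -0.63 to -0.36, and the SDs inside the groups from 0.02 to 0.35. The sign depended on the length used: per kb of principal mRNA, the difference at monocyte day 14 was 0.24.

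In macrophages at day 2, 30 of the 85 tested members rose against controls (edgeR quasi-likelihood test, Benjamini-Hochberg adjusted p under 0.05) and 0 fell. Over all genes tested, 10.1% were called higher and 7.1% lower. The members' median log2 fold change was 1.11, against -0.16 over all genes, with 18 of 51 large-subunit names (median 1.02) and 12 of 34 small-subunit names (median 1.20) called. At an unadjusted p under 0.05, 53 members were higher and 1 lower, and DESeq2 called 43 higher and 1 lower.

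Rpl36al (large subunit) had the smallest adjusted p, with 29.4 and 43.3 CPM in the controls and 155, 115 and 116 CPM at day 2 (log2 fold change 1.82 ± 0.39, adjusted p = 0.0034). Exons of Rpl36al overlap an exon of another gene that is not a small RNA. Rplp2, an acidic protein of the stalk that recruits elongation factors, had 16.3 and 27.7 CPM and then 113, 61.1 and 84.1 CPM (log2 fold change 1.97 ± 0.48, adjusted p = 0.0074). Rps26, at the mRNA exit of the small subunit, had 19.7 and 27.5 CPM and then 102, 66.5 and 79.1 CPM (log2 fold change 1.81 ± 0.40, adjusted p = 0.0044). In all of these the day 2 libraries lay above both controls, and Rplp2 was 3.91-fold higher. Rpl39, a small protein of the exit tunnel, rose by a log2 fold change of 1.98 ± 0.51. Rpl3l rested on 2 counts in the controls and 172 at day 2, a ratio of 78.0 (95% counting interval 21.3 to 649, counting error only).

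Rps3, at the mRNA entry of the small subunit, is an abundant member with few shared windows (3.6%). It had 197 and 263 CPM in macrophage controls and 556, 432 and 553 CPM at day 2 (log2 fold change 1.16 ± 0.31, adjusted p = 0.013). Its 2.24-fold rise was measured on sequence that other genes seldom share, and each day 2 library lay above both controls. Over the members as a whole, 8 of the 13 with under 25% shared windows rose (median 1.30), 17 of the 44 with 25 to 75% (median 1.17) and 5 of the 28 with over 75% (median 0.83).

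The day 2 count rested on few controls. Without macrophage control replicate A it was 1, without control B 9, without day 2 replicate A 6 and without day 2 replicate C 11, while the median log2 fold change stayed between 0.82 and 1.36 over all libraries left out.

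At day 14 in macrophages 2 members rose, Rpl3l and Rplp2, and 0 fell, against 5.51% and 2.7% of all genes called higher and lower. The median was 0.67, with 23 members higher and 2 lower at an unadjusted p under 0.05, and DESeq2 called 6 higher and 1 lower. Rplp2 had 38.1, 45.6 and 104 CPM (log2 fold change 1.51 ± 0.47, adjusted p = 0.049), all 3 above the controls. Rpl3l had 0.670, 0.893 and 2.42 CPM, a ratio to the 2 control counts of 31.5 (95% counting interval 8.47 to 264). Without day 14 replicate C no member was called and the median was 0.22, which is also the lowest median with 1 library left out. Without control replicate A 1 member was called (median 0.44), without control replicate B 0, and without day 14 replicate A 4.

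At day 28 in macrophages 1 member was called and it fell, against 6.57% of all genes called higher and 3.99% lower. That gene was Rpl10a, a protein at the large subunit's L1 stalk, with 10.5 and 15.2 CPM in controls and 4.45, 3.92 and 3.92 CPM at day 28 (log2 fold change -1.65 ± 0.50, adjusted p = 0.039). Its libraries did not overlap, but 87.9% of its windows are shared with other genes, and the call was lost without any 1 of the 5 libraries. Its exons also overlap an exon of another gene that is not a small RNA, so reads of that gene may be among its counts. The median of the members was 0.38, and it was 0.15 without control A, 0.19 without day 28 replicate C and 0.68 without control B. In all, 4 members were higher and 1 lower at an unadjusted p under 0.05, and DESeq2 called 0 higher and 1 lower.

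**Figure D4:**
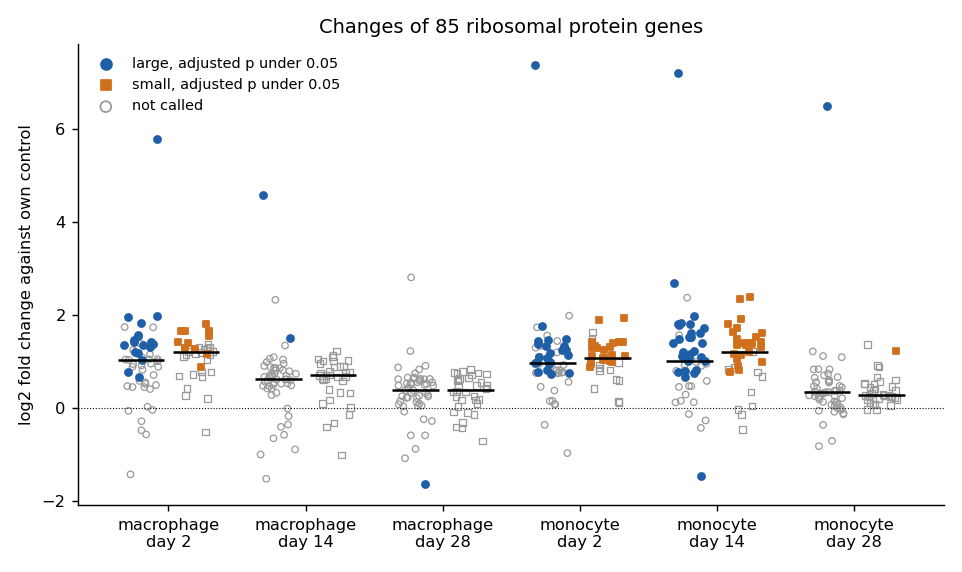
Log2 fold change of the 85 tested members in each cell type and day against its own controls, large-subunit names (circles) left and small-subunit names (squares) right in each pair, filled where the adjusted p is under 0.05, with bars at medians. Medians are 1.02 and 1.20 in macrophages at day 2 and 1.01 and 1.20 in monocytes at day 14, and the points above 4 are Rpl3l and Rpl39l, which had 2 and 0 counts in controls.

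In monocytes at day 2, 44 of 85 members rose and 0 fell, against 15.5% of all genes called higher and 11.5% lower. The median was 1.00 (all genes 0.00), with 22 of 51 large-subunit and 22 of 34 small-subunit names called. Rps27l had 52.4, 93.7 and 47.0 CPM in controls and 289, 285 and 165 CPM at day 2 (log2 fold change 1.94 ± 0.40, adjusted p = 0.0016). Rplp0, the stalk's base, had 245, 337 and 244 CPM and then 676, 500.5 and 446 CPM (log2 fold change 0.97 ± 0.23, adjusted p = 0.0041). For both, each day 2 library lay above each control. Rpl36al (1.47 ± 0.34), Rpl23 (1.45 ± 0.36) and Rps29 (1.90 ± 0.51) also rose, as log2 fold changes. Of the 13 members with under 25% shared windows 11 rose (median 1.28), and of the 28 with over 75% 7 rose (median 0.91).

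Rpl39l had 0 counts in all 3 monocyte controls and 39 over the day 2 libraries, at least 31.7-fold higher against a floor of 3 counts over the group. It remained at least 33.5-fold higher at day 14 and at least 18.6-fold higher at day 28, from 43 and 26 counts. Setting Rpl39l to these bounds could not move the members' medians, since its value lies above them either way. With 1 library left out, the day 2 count was 13 without monocyte control A, 10 without control C, 17 without day 2 replicate A and 29 without day 2 replicate B. DESeq2 called 56 higher and 0 lower, and at an unadjusted p under 0.05 there were 60 higher and 1 lower.

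In monocytes at day 14, 54 members rose and 1 fell, against 19.8% of all genes called higher and 17.9% lower. The median was 1.10 (all genes -0.03), with 30 of 51 large-subunit names and 24 of 34 small-subunit names called higher. Rps27l reached 379.6, 201 and 432 CPM (log2 fold change 2.39 ± 0.41, adjusted p = 1.6e-04). Rpl36al had 43.3, 59.9 and 37.9 CPM in controls and 176, 111 and 205 CPM (log2 fold change 1.80 ± 0.34, adjusted p = 3.8e-04). Rpl39 had 9.20, 14.8 and 8.59 CPM and then 54.6, 22.7 and 51.6 CPM (log2 fold change 1.98 ± 0.44, adjusted p = 0.0015). In each of these replicate B was the lowest at day 14 and still above all controls. Rps29, a small zinc-binding protein of the small subunit, rose from a mean of 1.62 to 8.21 CPM (log2 fold change 2.34 ± 0.52, adjusted p = 0.0016), and Rpl3l by a log2 fold change of 2.68 ± 0.84.

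Rpl10a was the 1 member that fell in monocytes at day 14, from 7.85, 10.9 and 6.15 CPM to 4.64, 2.59 and 1.73 CPM (log2 fold change -1.48 ± 0.47, adjusted p = 0.018). It lay below the controls' mean in each of the 6 comparisons with controls, with log2 fold changes from -1.65 in macrophages at day 28 to -0.83 in monocytes at day 28, of which only the 2 named passed the test. The day 14 count was 33 higher and 1 lower without monocyte control A, 29 and 1 without control C, and 25 and 0 without day 14 replicate C. DESeq2 called 63 higher and 1 lower.

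By day 28 in monocytes 2 members were called higher, Rps27l and Rpl39l, and 0 lower, against 11.7% and 6.52% of all genes. Rps27l had 227, 111 and 111 CPM (log2 fold change 1.22 ± 0.40, adjusted p = 0.037), and the median of the members was 0.31 (0.14 without day 28 replicate A and 0.52 without monocyte control B, the lowest and highest with 1 library left out). At an unadjusted p under 0.05, 4 members were higher and 0 lower, and DESeq2 called 4 higher and 0 lower. Both calls were lost without monocyte control A, without control C or without day 28 replicate A.

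Some members were followed for known roles. Of the stalk proteins, Rplp0 rose in macrophages at day 2 (0.77 ± 0.26) and in monocytes at days 2 and 14 (0.97 ± 0.23 and 0.80 ± 0.23). Rplp1 rose in monocytes at days 2 and 14 (1.33 ± 0.37 and 1.61 ± 0.37), and its 0.94 ± 0.42 in macrophages at day 2 did not pass (adjusted p = 0.13). Rpsa, a small-subunit protein also known as the laminin receptor, rose in monocytes at day 2, from 20.8, 29.0 and 20.3 CPM to 56.1, 43.6 and 43.0 CPM (log2 fold change 1.02 ± 0.27, adjusted p = 0.0085). Its other 5 comparisons with controls did not pass. Values without a call were also found for Rpl5 and Rpl11, which bind MDM2 and so stabilise p53, in all 6 comparisons, with log2 fold changes from -0.71 to 0.07 for Rpl5 and from -1.09 to 0.47 for Rpl11. Rpl5, Rpl11 and Rps6 averaged 3.23, 2.43 and 1.80 CPM with 92.8%, 61.5% and 84.8% of their windows shared. A missing call in them does not show that they were unchanged, and the part of low counts or shared sequence was not tested. Rps6 had log2 fold changes from -0.33 to 0.80 with standard errors of 0.59 to 0.66.

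The paralog Rpl7l1, a factor of large-subunit assembly, rose in macrophages at day 2 (0.67 ± 0.22) and in monocytes at day 2 (0.74 ± 0.20). Rpl22l1, the paralog of Rpl22, rose in macrophages at day 2 (1.54 ± 0.47), where Rpl22 rose too (1.47 ± 0.39). Rps27rt rose in monocytes at day 14 (1.81 ± 0.65) at 4.22, 2.26 and 3.80 CPM, with 91.0% of its windows shared, while Rps27 had 1.22 ± 0.61 and did not pass. Rps19bp1, the member that is no ribosomal protein, was not called in any of the 6 comparisons with controls, and its log2 fold changes ran from -0.47 to 1.28.

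Short mRNA went with the rise in all genes, and the members were read against other genes of their length. In macrophages at day 2, among genes of at least 10 CPM with an mRNA under 1000 bases, 21 of 42 members (50%) and 255 of 569 other genes (44.8%) were called higher, with medians of 1.23 and 1.19. In monocytes at day 2 the shares were 27 of 42 members (64.3%) and 323 of 569 others (56.8%), with medians of 1.00 and 1.15. In monocytes at day 14 they were 35 of 42 (83.3%) and 403 of 569 (70.8%), with medians of 1.17 and 1.51. Other genes with an mRNA of 3000 bases or more had medians of -0.33, -0.45 and -0.54 in these 3 comparisons. Medians of members and other short genes thus lay closer to each other than to those of long genes, and 22 of those 569 encode mitochondrial ribosomal proteins and 53 have names of respiratory chain subunits.

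At day 28 in monocytes the median of the short members was 0.34 with 1 of 42 called higher, and that of the 569 others was 0.74 with 147 called higher (25.8%). In macrophages at day 28 the medians were 0.48 and 0.22, and 0 of 42 members and 62 of the 569 others were called higher. At day 14, with replicate C included, they were 0.75 and 0.65 in macrophages, with 1 and 72 called higher.

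**Figure D5:**
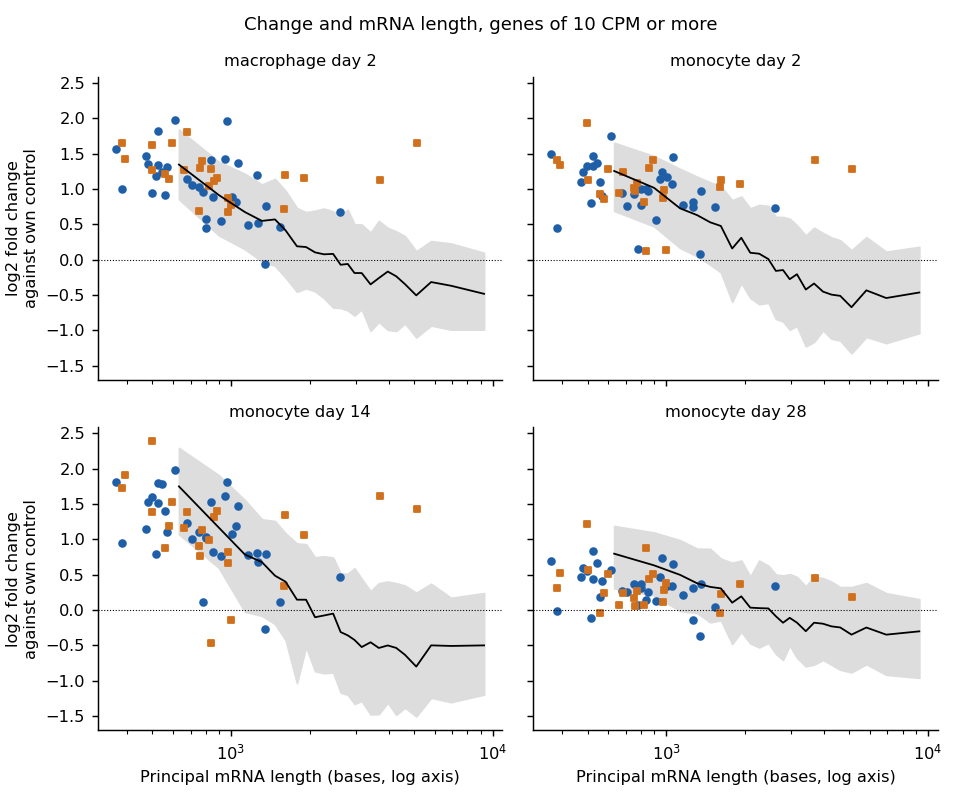
Log2 fold change against own control by principal mRNA length (log axis) for members of at least 10 CPM (circles large subunit, squares small subunit), in 4 comparisons, with the median (line) and the middle 50% (grey band) of other genes of at least 10 CPM in 24 length bins. The line falls from short to long mRNAs, by day 28 in monocytes less steeply, and most members lie along it, while Rps15a (5130 bases) and Rps20 (3706 bases) lie above it in macrophages at day 2 and in monocytes at days 2 and 14.

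An offset for each library's length trend was then fitted on genes that are not members. With the trend over other genes of at least 10 CPM on principal mRNA length, 6 members were higher and 2 lower in macrophages at day 2 (median 0.01), and 8 higher and 2 lower in monocytes at day 2 (median 0.01). At monocyte day 14 there were 9 higher and 17 lower (median -0.28), and at day 28 1 higher and 11 lower (median -0.29). With this setting the median of the set was close to the trend of those other genes at day 2, and below it at the later monocyte times. The medians cover all 85 tested members, of which 28 averaged under 10 CPM, so the 2 sets differ in level. The 13 members with under 25% shared windows had medians of 0.69, 0.78 and 0.70 under this offset in macrophages at day 2 and monocytes at days 2 and 14, and the 28 with over 75% had -0.28, -0.13 and -0.43. Those 13 include paralogs, Rps19bp1 and members with long annotated mRNAs (Rps15a 5130, Rps20 3706, Rpl7l1 2606, Rps3 1908 and Rps24 1613 bases). The classes thus differ in more than shared sequence, and its part was not tested. With the same trend over all other tested genes, 24 members were higher and 2 lower in macrophages at day 2, 30 and 1 in monocytes at day 2, and 31 and 1 at monocyte day 14. An offset of this kind also takes out any change that short genes share for another reason, and these causes cannot be told apart here.

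Some members kept their call under the offset over genes of at least 10 CPM. Rplp2 was still higher in macrophages at day 2 (1.12, adjusted p = 0.0078), as was Rps27l in monocytes at days 2 and 14 (0.65 and 0.56). Rps3 was higher at macrophage day 2 (0.96), monocyte day 2 (0.91) and monocyte day 14 (0.98). Rpl10a was called lower in all 6 comparisons, from -2.82 in monocytes at day 14 to -1.58 in monocytes at day 28. Of these, Rps3 has an annotated principal mRNA of 1908 bases and also a coding transcript of 489 bases, and Rps15a one of 5130 and one of 250 bases, so the length that applies to them is uncertain.

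Other genes of the translation machinery, in lists written from general knowledge, were counted in the same way. Over all genes tested, 10.1% were higher and 7.1% lower in macrophages at day 2, 15.5% and 11.5% in monocytes at day 2, and 19.8% and 17.9% in monocytes at day 14, and the counts of each list are to be read against these shares. Of the ribosome components that the name rule misses, Rack1 and Fau rose in macrophages at day 2 (0.78 ± 0.26 and 1.91 ± 0.48), in monocytes at day 2 (1.03 ± 0.23 and 1.65 ± 0.41) and in monocytes at day 14 (0.63 ± 0.23 and 2.33 ± 0.42). Of the 17 elongation factors and other TOP messages, 7 rose and 0 fell in macrophages at day 2 (median 0.76), 10 and 0 in monocytes at day 2 (median 0.78) and 5 and 2 in monocytes at day 14 (median 0.39). Btf3, of the nascent chain-associated complex, rose in all 3 (1.51 ± 0.34, 1.23 ± 0.29 and 1.43 ± 0.29). The translocation factor Eef2, also a TOP message, fell in monocytes at day 14 (-0.90 ± 0.24), as did Eif4b (-0.85 ± 0.27). The 5 higher and 2 lower calls among these 17 stand beside 19.8% and 17.9% of all genes at that time, and were not read as a trait of the TOP class.

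Of 31 initiation factors, 9 rose and 1 fell in macrophages at day 2, 12 and 4 in monocytes at day 2, and 11 and 5 in monocytes at day 14. The cap-binding protein Eif4e rose in all 3 (1.70 ± 0.28, 1.83 ± 0.25 and 1.88 ± 0.25) and its scaffold Eif4g3 fell in all 3 (-1.13 ± 0.31, -1.30 ± 0.28 and -1.52 ± 0.29). Of the ribosome biogenesis genes, which act in the nucleolus, 1 of 55 rose and 1 fell in macrophages at day 2 (median -0.10), against 10.1% and 7.1% of all genes. In monocytes at day 2, 10 of the 55 rose and 2 fell (median 0.06), against 15.5% and 11.5%. At monocyte day 14, 8 rose and 14 fell (median -0.19), with more lower than higher calls where all genes had 19.8% higher and 17.9% lower. Among the biogenesis genes Nhp2 rose in all 3 comparisons and Ncl in both monocyte comparisons (0.93 ± 0.21 and 1.13 ± 0.21). The median mRNA is 2759 bases in that list, 1864 in the TOP list and 2025 in the initiation factors.

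Among 20 regulators of mTORC1, S6 kinase and Myc, 4 rose and 3 fell in macrophages at day 2, with the Myc antagonists Mxd1 (3.21 ± 0.79) and Mxi1 (2.28 ± 0.52) higher and the mTORC1 inhibitor Tsc2 lower (-2.21 ± 0.66). In monocytes 4 rose and 4 fell at day 2 and 4 rose and 5 fell at day 14, close to the shares of all genes. The mitochondrial ribosomal proteins, a separate ribosome with a median mRNA of 1280 bases, had called members in the same comparisons: 23 of 77 rose and 0 fell in macrophages at day 2 (median 0.86), 36 and 0 in monocytes at day 2 (median 0.83) and 38 and 9 in monocytes at day 14 (median 0.83). Mrpl52 rose in all 3 (2.32 ± 0.45, 2.15 ± 0.38 and 3.01 ± 0.40).

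Between the cell types few members differed. In controls 1 member was called lower in macrophages and 0 higher, against 7.61% of all genes called higher and 4.9% lower. It was Rpl3l, with 2 counts in macrophage controls and 122 in monocyte controls, a ratio of 23.6 (95% counting interval 6.40 to 197). That call was lost without macrophage control B or without monocyte control B. At an unadjusted p under 0.05, 3 members were higher and 6 lower, and DESeq2 called 2 in each direction.

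At day 2, 3 members were lower in macrophages and 0 higher (all genes 1.64% higher, 1.78% lower). Rpl4, a large-subunit protein lining the exit tunnel, had 312, 229.8 and 309.6 CPM in macrophages and 611, 486 and 491 CPM in monocytes (log2 fold change -0.90 ± 0.22, adjusted p = 0.023). Rpsa (-1.12 ± 0.27) and Rplp0 (-0.85 ± 0.23) were also lower, and in all 3 genes the libraries of the cell types did not overlap. At an unadjusted p under 0.05, 1 member was higher and 6 lower, and DESeq2 called 0 higher and 3 lower. The count was 0 without macrophage day 2 replicate B or monocyte day 2 replicate A, and 1 without macrophage replicate C or monocyte replicate C.

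At day 14 also 3 members were lower in macrophages and 0 higher (all genes 5.34% higher, 4.02% lower), namely Rps9 (-0.88 ± 0.27), Rps27rt (-2.15 ± 0.66) and Rpl36al (-1.08 ± 0.33). The members' median there was -0.66, with 1 higher and 34 lower at an unadjusted p under 0.05 and 20 lower by DESeq2. Without macrophage day 14 replicate C 35 members were called lower (median -1.05), without monocyte day 14 replicate B 9, and without any 1 of the other 4 libraries 0. With the length trend over genes of at least 10 CPM the median was 0.02. At day 28, 0 members were called (all genes 1.49% higher, 1.03% lower), 2 were higher and 1 lower at an unadjusted p under 0.05, and DESeq2 called 1 in each direction.

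Most members had lower values at day 28 than at day 2 of the implant in both cell types, and few passed the test. In macrophages at day 28 against day 2, 2 members fell and 0 rose (all genes 2.28% higher, 1.97% lower), with a median of -0.73. Rps27l went from 403, 257 and 366 CPM to 123, 121 and 131 CPM (log2 fold change -1.45 ± 0.40, adjusted p = 0.044), and Rpl36al from 155, 115 and 116 CPM to 44.0, 49.4 and 73.8 CPM (log2 fold change -1.21 ± 0.33, adjusted p = 0.045). The day 28 libraries lay below all day 2 libraries for both. Both calls were lost without any 1 of the 6 libraries except day 28 replicate C, without which 4 members were called. In monocytes at day 28 against day 2, 0 members were called (edgeR, all genes 0.387% higher, 0.48% lower), although the median was -0.70 and 35 members were lower and 0 higher at an unadjusted p under 0.05. DESeq2 called 4 lower.

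The test of the difference between the cell types' responses called no member at any day. At day 2, 3.78% of all genes had a called interaction of implant and cell type, 7.55% at day 14 and 5.77% at day 28. The members' medians of that difference (macrophage response minus monocyte response) were 0.07, -0.47 and 0.04. With 1 library left out they ran from -0.15 (macrophage control A) to 0.34 (macrophage control B) at day 2, from -0.89 (macrophage day 14 replicate C) to -0.12 (macrophage control B) at day 14 and from -0.19 (monocyte control B) to 0.34 (macrophage control B) at day 28, so their sign at days 2 and 28 depended on single libraries. At an unadjusted p under 0.05, 1 member was higher and 2 lower at day 2, 0 and 6 at day 14, and 0 and 1 at day 28. DESeq2 called 1 higher at day 2, 3 lower at day 14 and 0 at day 28. The larger number of members called in monocytes than in macrophages was thus not borne out by the test of that difference. Without macrophage day 14 replicate C, 4 members had a called interaction at day 14, and without monocyte control B 2.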

How the data were processed

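RNA of 23 libraries was read as 75-base single reads (SMART-Seq v4 and Nextera XT libraries, per the labels' protocols). Per the submitters' processing notes the tools were bcl2fastq, STAR 2.4.1d and featureCounts of Subread 1.5.1 on GRCm38; annotation release, strand setting and the treatment of multiple matches are not stated in the sources used. The authors deposited 1 table of raw counts per gene for 47729 entries, of which 47310 matched a GENCODE M21 symbol.

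Samples were grouped by their titles. Counts were filtered (filterByExpr), scaled by TMM (factors 0.727 to 1.41) and fitted in edgeR 4.0.16 (R 4.3.3) with a robust quasi-likelihood model over all 8 groups. Adjusted p-values are Benjamini-Hochberg over all 16260 genes tested, called at 0.05, also where a sentence gives an adjusted p alone. Errors after ± are standard errors for log2 fold changes and SDs for means. Biological replicates are those of the labels. Library totals ran from 9303153 to 32994092 counts. A member of few CPM such as Rps6 had standard errors of 0.59 to 0.66, and the part of depth in them was not tested. Deviations used log2 of CPM + 0.1. Lowess length trends (span 0.3) entered as offsets per library. Shared windows were found with bwa 0.7.19. Start windows and pyrimidine runs came from RefSeq. Scripts were tested on simulated data.

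Members and lists were chosen with earlier results of these data known. Named members are, per comparison, the 4 called with the smallest adjusted p in each direction and the 3 with the largest fold change, the paralogs and their partners, the stalk proteins, Rpsa, Rpl5, Rpl11, Rps6, Rps19bp1, and the 5 highest and 5 lowest per kb. Rps3, Rps14, Rps15a and Rps20 were described for level, window sharing or length after their values were seen. Some members within these rules are not reported here. Alternatives were RLE scaling, no count filter, a replicate block, length offsets, DESeq2 1.42.0 and leaving out each library. Same-letter libraries did not deviate together (correlations -0.23 to 0.24, median -0.01, 77 pairs), so letters were not taken as pairs.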

Additional observations from a re-analysis of the deposited data

How the results depend on the processing

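The counts of members called changed by over 1.5 times, or from or to 0, under these settings; the cause was not tested. With the replicate block (letters A to C), counts of members called were 15 for macrophage day 2, 1 for macrophage day 14, 0 for macrophage day 28, 1 for monocyte day 28, 0 for the cell types at day 14 and 0 for macrophage day 28 against day 2. With RLE scaling, counts of members called were 1 for macrophage day 14, 5 for the cell types at day 14 and 1 for the interaction at day 14. With no low count filter, counts of members called were 0 for macrophage day 28, 3 for the controls' cell types, 1 for the cell types at day 2, 6 for macrophage day 28 against day 2 and 2 for the interaction at day 14. With DESeq2, counts of members called were 7 for macrophage day 14, 4 for monocyte day 28, 4 for the controls' cell types, 20 for the cell types at day 14, 2 for the cell types at day 28, 11 for macrophage day 28 against day 2, 4 for monocyte day 28 against day 2, 1 for the interaction at day 2 and 3 for the interaction at day 14. With the exon length trend as offset, counts of members called were 7 for macrophage day 14, 7 for macrophage day 28, 7 for the controls' cell types, 20 for the cell types at day 14, 0 for macrophage day 28 against day 2, 1 for monocyte day 28 against day 2 and 1 for the interaction at day 14. With the mRNA length trend over all other genes, added after seeing the data, counts of members called were 10 for macrophage day 14, 10 for macrophage day 28, 32 for monocyte day 14, 11 for the controls' cell types, 7 for the cell types at day 2, 11 for the cell types at day 14, 1 for the cell types at day 28, 0 for macrophage day 28 against day 2, 1 for monocyte day 28 against day 2, 1 for the interaction at day 14 and 1 for the interaction at day 28. With the mRNA length trend over genes of at least 10 CPM, also added after seeing the data, counts of members called were 8 for macrophage day 2, 5 for macrophage day 14, 2 for macrophage day 28, 10 for monocyte day 2, 26 for monocyte day 14, 12 for monocyte day 28, 15 for the controls' cell types, 9 for the cell types at day 2, 6 for the cell types at day 14, 1 for the cell types at day 28, 0 for macrophage day 28 against day 2, 4 for the interaction at day 14 and 4 for the interaction at day 28.
Leaving out 1 library at a time gave 1 to 29 for macrophages at day 2, 0 to 4 at day 14 and 0 at day 28. In monocytes it gave 10 to 52 at day 2, 25 to 58 at day 14 and 0 to 2 at day 28. Between the cell types it gave 0 to 1 in controls, 0 to 2 at day 2, 0 to 35 at day 14 and 0 at day 28. For day 28 against day 2 it gave 0 to 4 in macrophages and 0 in monocytes, and for the interaction 0 at day 2, 0 to 4 at day 14 and 0 at day 28. The letters of the replicates are no stated pairing, so calls lost under the block were not read as weaker effects.

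The large-minus-small difference kept its sign with each library left out, within -0.67 to -0.21 over all groups. With paralogs included it was -0.66 in macrophage controls, -0.85 at macrophage day 2 and -0.49 at day 28. As means over members it was -0.53 at macrophage day 28 and -0.74, -0.75 and -0.64 at monocyte days 2, 14 and 28. Per kb of principal mRNA, added after seeing the data, it was -0.35 and -0.42 at macrophage days 2 and 28, -0.14 in monocyte controls, -0.16 and -0.25 at monocyte days 2 and 28, and 0.24 at monocyte day 14, where it reversed.

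Of 692 results for named members with 1 library left out, 584 kept their side of the threshold, 106 lost the call, 2 gained one and 0 reversed. Reversals occurred with the trend over genes of at least 10 CPM: in monocytes at day 14 Rps27rt had -0.16, Rplp1 -0.28 and Rps14 -0.12. RLE moved the median of all genes by over 0.1 in the day 14 interaction (by -0.11) and in no other comparison. Members of few CPM, among them Rps6, Rpl5 and Rpl11, had few counts and many shared windows. The part of depth and of shared sequence in their precision was not tested.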
